A study of Homo sapiens with 2 samples.

Results

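Integrins are the receptors by which cells hold on to the extracellular matrix, and focal adhesions are the protein assemblies that tie them to actin and to signalling kinases. The genes described here were 40 named members of this system, 22 integrin subunits and 18 intracellular adaptors and kinases. They were chosen by symbol, with earlier results of these data known. A member was measured by the probe sets that the platform annotation assigns to it alone. On this rule 39 of the 40 had a value, out of 19775 genes in all. ITGB6 had none, because its 4 probe sets are also assigned to a long non-coding RNA gene.

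An integrin is a dimer of an alpha and a beta subunit. The extracellular part binds fibronectin, collagen, laminin or another ligand, and the short tail of the beta subunit recruits talin and kindlin, which switch the receptor to its active form. Further adaptors then join, among them the complex of ILK, PINCH and parvin, the actin linkers vinculin, alpha-actinin and tensin, and the kinases FAK and SRC with their scaffolds paxillin and p130Cas. In epithelial tumours these proteins are known for their part in adhesion, spreading and migration.

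The lines compared were AGS.W, a stable AGS line made with a lentivirus carrying the coding region of WTX, and AGS.veh, its negative control line. AGS is a gastric adenocarcinoma cell line, WTX (AMER1) is an X-linked tumour suppressor gene, and stable lines of the study were kept by puromycin selection after infection. Each line was read on 1 Affymetrix U133 Plus 2.0 array, so no p-value or standard error can be given, and every difference below is one between 2 cultures. The comparison asks how the transcripts of the adhesion machinery stand in cells with added WTX. In such bulk RNA, fewer cells with a transcript and less transcript per cell cannot be told apart.

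The deposited values are log2 signals, with a median of 4.02 for AGS.W and 4.03 for AGS.veh over 54613 probe sets. Differences are given as AGS.W minus AGS.veh on the log2 scale, where 1 is 2-fold. A gene is represented by its probe set of highest mean signal, and it was counted as above the signal filter where that probe set reached the median of its array on at least 1 array, which held for 35 of the 39 members and for 12811 of all genes. The probe set of WTX itself stood below the filter, at 3.70 in AGS.W against 3.86 in AGS.veh. Whether it lies inside the coding region carried by the vector is unknown, which leaves the labels unchecked by it. The label on extraction names a brain tissue where other labels name AGS cells. Of 10 epithelial markers 8 passed the filter, the keratin KRT18 having 10.9 in AGS.W and 11.2 in AGS.veh, while KRT19 and CDH1 did not pass. Of 9 measured markers of neurons and glia 5 passed, namely GAD1, MBP, SLC17A7, SLC1A2 and RBFOX3, with signals from 4.59 to 7.06 in AGS.W and from 4.46 to 7.11 in AGS.veh. GFAP, S100B, AQP4 and SYT1 did not pass, GFAP having 3.44 in AGS.W and 2.97 in AGS.veh.

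Among the 35 members above the filter, 1 was at least 2-fold higher in AGS.W and 0 were at least 2-fold lower. Of all genes above the filter 3.78% passed 2-fold, 1.83% on the higher and 1.94% on the lower side, so the members' count lies near the background. The member past 2-fold was the tensin TNS1. At 1.5-fold, 2 members (5.71%) were higher, TNS1 and ITGA5, against 6.64% of all genes, and 6 members (17.1%) were lower, against 7.37% of all genes. These 6 were ITGB8, TNS3, PARVA, LIMS1, FERMT1 and ITGAV. By sign alone 11 members (31.4%) were higher, 23 (65.7%) were lower and ITGA3 was equal, where 45.7% of all genes above the filter were higher and 50.5% lower. The median difference of the members was -0.13, against -0.01 for all genes. The 18 adaptors and kinases had a median of -0.25 with 14 lower (77.8%). The 17 integrin subunits had 9 lower (52.9%), near the share over all genes, and a median of -0.03 that changed sign after quantile normalization and with a lowess curve taken off. No test was possible, and these counts describe 2 arrays.

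**Figure D1:**
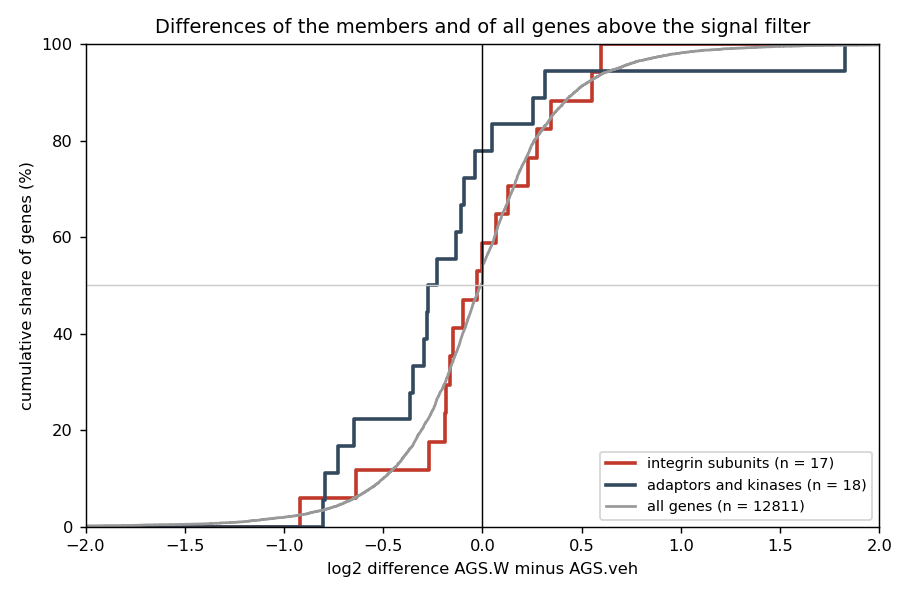
Cumulative share of genes (vertical axis, %) against the difference in log2 signal, AGS.W minus AGS.veh (horizontal axis), for integrin subunits (n = 17), adaptors and kinases (n = 18) and all genes above the signal filter (n = 12811). The curve of the adaptors runs left of the other curves around its median of -0.25, and TNS1 is its single step past 1.

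ITGA5, ITGA2 and ITGA1, which pair with ITGB1 to bind fibronectin or collagen, were higher in AGS.W. ITGA5, the alpha chain of the classical fibronectin receptor, had a signal of 7.90 in AGS.W against 7.30 in AGS.veh on its single probe set, a difference of 0.60 or 1.51-fold. Of all genes above the filter 13.4% differed by at least this much in size. ITGA2, the alpha chain of an epithelial collagen receptor, had 7.60 in AGS.W against 7.04 in AGS.veh. Its second probe set had 6.47 in AGS.W and 6.05 in AGS.veh. Its differences of 0.55 and 0.42 thus had the same direction. ITGA1, which also binds collagen, had 6.19 in AGS.W and 5.91 in AGS.veh on its single probe set above the filter. Its difference of 0.27 was reached in size by 41.8% of all genes. ITGB1 itself, the beta chain that all 3 share, showed hardly any difference. It had 10.86 in AGS.W and 10.89 in AGS.veh, a difference of -0.03 that changed sign under the same scalings, and its 3 probe sets above the filter lay between -0.10 and -0.03.

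The integrins at least 1.5-fold lower were ITGB8 and ITGAV, which together form the receptor that binds latent TGF-beta. ITGB8 had 4.41 in AGS.W and 5.33 in AGS.veh, a difference of -0.92, the largest in size among the integrins and one reached by 4.83% of all genes. It rested on 1 probe set, since its other 4 stood below the filter, with differences of 0.28, -0.49, 0.18 and -0.39, and their signs do not settle on a direction. Its AGS.W signal lies close to the array median of 4.02. ITGAV had 7.50 in AGS.W and 8.13 in AGS.veh on its single probe set, a difference of -0.63 or 1.55-fold lower. Other beta chains that pair with ITGAV had smaller differences. ITGB5, a vitronectin receptor chain, had 9.10 in AGS.W against 9.19 in AGS.veh. Its 4 probe sets ranged from -0.26 to 0.28. ITGB3 passed the filter on the AGS.W array alone, having 4.30 in AGS.W and 3.95 in AGS.veh. A further 6 probe sets stood below the filter.

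The laminin-binding subunits were close to equal between the lines on their brightest probe sets. ITGA6, which pairs with ITGB4 in hemidesmosomes, had 7.11 in AGS.W against 7.30 in AGS.veh, with -0.14 on its second probe set. ITGB4 had 6.46 in AGS.W and 6.33 in AGS.veh, with 0.13 and 0.08 on its 2 probe sets above the filter. ITGA3, the partner of ITGB1 on laminin, had 6.01 on both arrays, and the 2 deposited values are identical in all their decimals. ITGA7, a laminin receptor best known from muscle, had 4.41 in AGS.W and 4.58 in AGS.veh, close to the filter. Its second probe set, below the filter, had 3.40 in AGS.W and 2.75 in AGS.veh. That difference of 0.65 goes the other way, so the direction of ITGA7 is not settled.

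**Figure D2:**
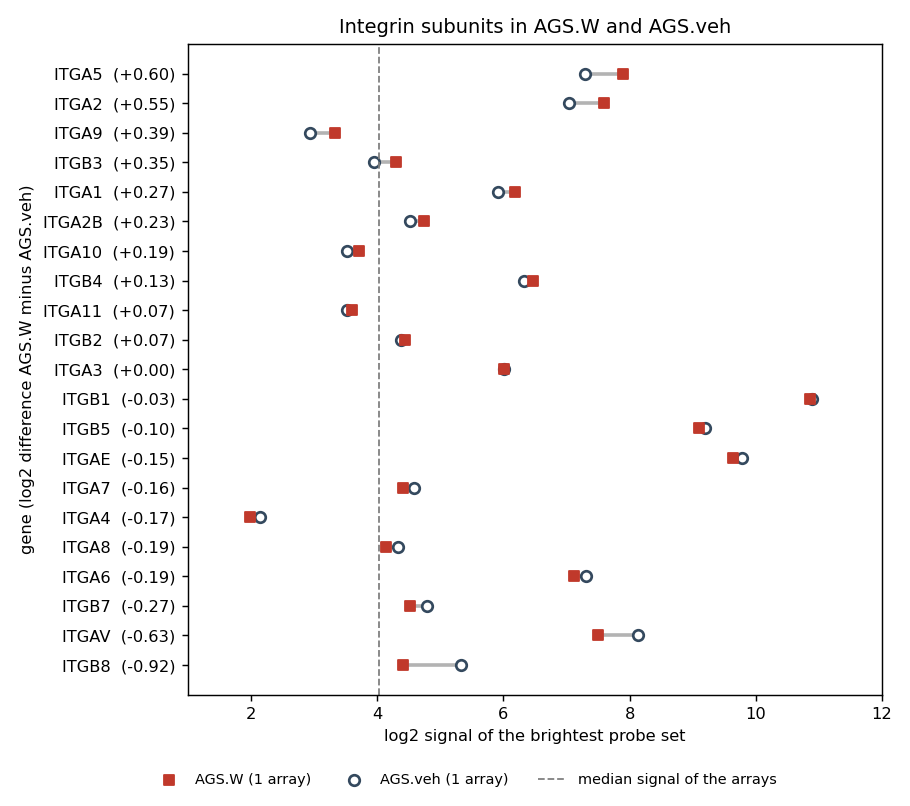
Signals of 21 integrin subunits (horizontal axis, log2) in AGS.W (squares) and AGS.veh (open circles), 1 array each, ordered by the difference in brackets beside each symbol. ITGA5 (0.60) stands at the top and ITGB8 (-0.92) at the bottom, and the dashed line marks the median signal of the arrays.

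Integrins of blood cells and of mesenchymal tissues were dim or differed little. ITGAE, the alpha chain by which lymphocytes within epithelia bind E-cadherin, had 9.64 in AGS.W and 9.78 in AGS.veh. Its partner ITGB7 had 4.52 in AGS.W and 4.79 in AGS.veh. ITGA2B, the fibrinogen receptor chain of platelets, had 4.75 in AGS.W against 4.52 in AGS.veh. ITGB2, the common beta chain of leukocyte integrins, had 4.44 in AGS.W and 4.38 in AGS.veh. CD3E alone among 4 measured leukocyte markers passed the filter, its signals being 4.39 (AGS.W) and 4.42 (AGS.veh). PTPRC, a leukocyte marker below the filter, stood at 1.85 in AGS.W against 1.63 in AGS.veh. Among 4 platelet markers, GP9 (5.26 on both arrays) and GP1BA (AGS.W 4.67, AGS.veh 4.32) passed, while PF4 and PPBP did not. Among 8 fibroblast and muscle markers 5 passed, namely COL1A1, DES, MYH11, DCN and PDGFRA. Their signals ran from 4.13 to 7.89 in AGS.W and from 3.59 to 6.95 in AGS.veh. COL3A1, LUM and ACTA2 did not pass. Of 4 leukocyte alpha chains outside the members (ITGAD, ITGAL, ITGAM and ITGAX) only ITGAL passed the filter. ITGA8, a nephronectin receptor chain, had 4.15 in AGS.W and 4.33 in AGS.veh. ITGA4, ITGA9, ITGA10 and ITGA11 did not pass the filter on their brightest probe set, with log2 signals from 1.98 to 3.72 in AGS.W and from 2.15 to 3.52 in AGS.veh, so their differences of between -0.17 and 0.39 say little about the transcripts.

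Of the integrins with larger differences, ITGA5, ITGA2 and ITGB8 each have a single start in the RefSeq promoter table (GRCh38.p14), so their upstream sequence is unambiguous and is shown here. The 250 bases before the start of ITGA5 lie at chr12:54419267-54419516 on the minus strand, those of ITGA2 at chr5:52989102-52989351 on the plus strand and those of ITGB8 at chr7:20330650-20330899 on the plus strand. Capitals mark the GC box GGGCGG on either strand, a motif of SP1-type factors, and matches may overlap.
ITGA5: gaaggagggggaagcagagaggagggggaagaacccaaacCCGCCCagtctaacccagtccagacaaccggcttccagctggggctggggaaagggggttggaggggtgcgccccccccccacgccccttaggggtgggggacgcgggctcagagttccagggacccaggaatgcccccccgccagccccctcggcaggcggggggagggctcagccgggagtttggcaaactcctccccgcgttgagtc
ITGA2: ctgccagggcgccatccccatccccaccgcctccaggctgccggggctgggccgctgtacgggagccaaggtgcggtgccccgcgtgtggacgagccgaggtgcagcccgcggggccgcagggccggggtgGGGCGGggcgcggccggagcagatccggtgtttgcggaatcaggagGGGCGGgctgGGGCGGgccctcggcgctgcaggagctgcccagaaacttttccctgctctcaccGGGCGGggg
ITGB8: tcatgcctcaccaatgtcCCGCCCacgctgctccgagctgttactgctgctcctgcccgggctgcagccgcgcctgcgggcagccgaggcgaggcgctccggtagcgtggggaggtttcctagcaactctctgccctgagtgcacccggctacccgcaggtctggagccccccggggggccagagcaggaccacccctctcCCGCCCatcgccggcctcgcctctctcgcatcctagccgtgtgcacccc
The higher genes hold 1 (ITGA5) and 4 (ITGA2) matches and the lower gene holds 2 (ITGB8). The motif occurs in such windows of 20 of the 30 members that the table lists, and in 50% of their 54 windows, against 42.6% of all 35116 windows. A gene with several windows has more chances of a match. Where a gene has 1 window, 9 of 18 members had the motif, against 40.9% of all such genes. The AP-1 motif TGACTCA occurred in 1 member window and the TEAD motif GGAATG in 8, or 1.85% and 14.8% of the 54, against 4.20% and 11.9% of all windows. A match is a string of letters and was not tested as a binding site.

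Among the adaptors, the 6 members from the ILK, PINCH and parvin complex and the kindlins were lower with 1 exception. All 5 of PARVA, PARVB, LIMS1, FERMT1 and FERMT2 were lower in AGS.W and ILK was higher, and the median over the 6 genes was -0.50. Of all genes 50.5% were lower. Related genes outside the members went the other way. LIMS2 passed the filter and had 5.88 in AGS.W and 5.58 in AGS.veh, a difference of 0.30. PARVG and FERMT3 did not pass, with differences of 0.31 and 0.06. PARVA encodes alpha-parvin, which links ILK to actin. Its brightest probe set had 6.25 in AGS.W and 7.04 in AGS.veh, a difference of -0.79 or 1.73-fold lower, which 7.05% of all genes reached in size. PARVA was also the member read most often above the filter. All 7 of its probe sets were lower, from -0.79 to -0.17, with a mean of -0.49. PARVB, the related beta-parvin, had 5.08 in AGS.W and 5.19 in AGS.veh on its brightest probe set, and its 4 probe sets above the filter lay between -0.51 and -0.07.

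LIMS1 encodes PINCH-1, the LIM-domain partner of ILK. It had 4.53 in AGS.W and 5.26 in AGS.veh, a difference of -0.73 or 1.66-fold lower, and -0.38 on its second probe set above the filter. Its AGS.W signal also lies close to the array median. Its near copies limit this reading, since 2 further probe sets are assigned to it together with other LIMS genes. They had differences of -0.93 and -1.02, but cannot tell these genes apart and were not used. ILK, the pseudokinase at the centre of the complex, had 8.05 in AGS.W and 7.79 in AGS.veh on its single probe set, a difference of 0.26.

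The kindlins bind beta tails beside talin and are needed for integrin activation. FERMT1, the kindlin of epithelia, had 6.98 in AGS.W and 7.63 in AGS.veh, a difference of -0.65, and -0.48 and -0.49 on 2 further probe sets above the filter. FERMT2, the widely expressed kindlin, had 9.47 in AGS.W against 9.83 in AGS.veh. Its 3 probe sets ranged from -0.48 to -0.27. Every probe set of either gene above the filter was thus lower in AGS.W. The talins had small differences of opposite sign. TLN1 had 4.57 in AGS.W and 4.26 in AGS.veh, with 0.31 and 0.11 on its probe sets above the filter. TLN2 had 4.38 in AGS.W and 4.61 in AGS.veh on its single probe set above the filter. That difference of -0.23 was reached in size by 49.5% of all genes. The further probe sets of both talins, below the filter, were identical on the 2 arrays, so a split between the talins is not settled.

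**Figure D3:**
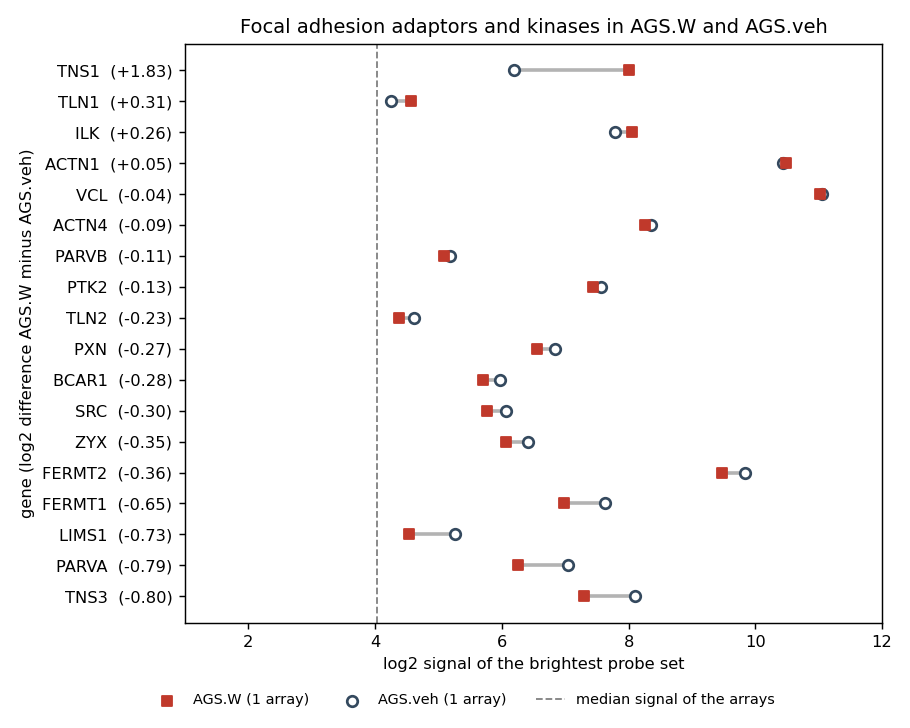
Signals of the 18 adaptors and kinases (horizontal axis, log2) in AGS.W (squares) and AGS.veh (open circles), 1 array each, ordered by the difference in brackets beside each symbol. TNS1 stands apart at the top with 1.83, and TNS3, PARVA, LIMS1 and FERMT1 lie between -0.80 and -0.65 at the bottom.

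Tensins, which connect beta tails with actin in mature fibrillar adhesions, differed in opposite directions. TNS1 had 8.01 in AGS.W and 6.19 in AGS.veh, a difference of 1.83 or 3.55-fold higher, and 0.539% of all genes differed by this much in size. The size depended on the probe set. The other 3 above the filter had 6.43, 6.03 and 5.59 in AGS.W against 6.18, 5.43 and 4.80 in AGS.veh, or 0.25, 0.60 and 0.79, so that all 4 were higher and only the brightest passed 2-fold. As the mean of these 4 the difference was 0.87. TNS3 had 7.30 in AGS.W and 8.10 in AGS.veh, a difference of -0.80 or 1.74-fold lower, on the single probe set above the filter, and -0.35 as the mean with its dim probe set. Of the tensins outside the members, TNS4, the short epithelial form, had 6.57 in AGS.W against 5.98 in AGS.veh. TNS2 had 4.20 in AGS.W and 4.46 in AGS.veh.

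The promoter table gives 5 starts for TNS1, and the array does not say which of them was used, so only the most upstream one is shown, with the 250 bases before it at chr2:218010276-218010525 on the minus strand. FERMT2 is shown beside it as a lower adaptor with 1 start, at chr14:52951051-52951300 on the minus strand. Capitals again mark the GC box.
TNS1: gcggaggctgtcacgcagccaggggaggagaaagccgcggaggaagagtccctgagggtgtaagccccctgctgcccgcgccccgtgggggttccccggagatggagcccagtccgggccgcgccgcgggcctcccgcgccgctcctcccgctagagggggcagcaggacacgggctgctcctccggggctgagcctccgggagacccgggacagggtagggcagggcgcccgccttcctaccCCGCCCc
FERMT2: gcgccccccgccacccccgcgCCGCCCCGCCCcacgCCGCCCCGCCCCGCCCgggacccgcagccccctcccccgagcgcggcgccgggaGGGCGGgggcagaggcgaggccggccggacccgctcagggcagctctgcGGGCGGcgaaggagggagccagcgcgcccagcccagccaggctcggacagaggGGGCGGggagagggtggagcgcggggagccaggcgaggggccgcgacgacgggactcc
The window of TNS1 has 1 match and that of FERMT2 has 8, with a G and C content of 76% and 84.4%.

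The structural actin linkers differed little. VCL, or vinculin, which reinforces the bond of talin to actin, had 11.02 in AGS.W and 11.06 in AGS.veh, a difference of -0.04 that changed sign with a lowess curve taken off. ACTN1, an alpha-actinin that cross-links actin, had 10.48 in AGS.W and 10.43 in AGS.veh. Its 4 probe sets lay between -0.06 and 0.17. The related ACTN4 had 8.26 in AGS.W and 8.36 in AGS.veh. ZYX, or zyxin, a LIM protein recruited by tension, had 6.07 in AGS.W and 6.42 in AGS.veh, with -0.35 and -0.43 on its 2 probe sets. Without the tensins, the 6 genes of this group had a median of -0.07.

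The kinases and their scaffolds all had small negative differences on their brightest probe sets. SRC had 5.77 in AGS.W and 6.06 in AGS.veh, a difference of -0.30. PXN, or paxillin, had 6.56 in AGS.W against 6.84 in AGS.veh. BCAR1, or p130Cas, had 5.70 in AGS.W and 5.98 in AGS.veh, with -0.28 and -0.40 on its probe sets. PTK2, the gene of FAK, had 7.43 in AGS.W and 7.57 in AGS.veh, but its 4 probe sets above the filter ran from -0.33 to 0.39 and 1 of them was identical on both arrays. The direction of PTK2 is therefore not set by these data. The group median was -0.28.

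Probe sets of a gene on 1 array are not replicates, but they are the only repeated readings in these data. Of the 17 members with more than 1 probe set above the filter, 14 were higher on all of these or lower on all, and the range between the probe sets of a member had a median of 0.21. The same share over all genes was not worked out, so the count of 14 says nothing particular to the members. ITGB5, PTK2 and ACTN1 were the 3 with mixed directions. The widest range, 1.58, was that of TNS1. Of the 70 member probe sets above the filter 47 were lower in AGS.W (67.1%), 21 were higher and 2 were identical, where 49.8% of all probe sets with 1 gene above the filter were lower. Probe sets of a gene repeat it, and 7 of the 47 are those of PARVA.

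**Figure D4:**
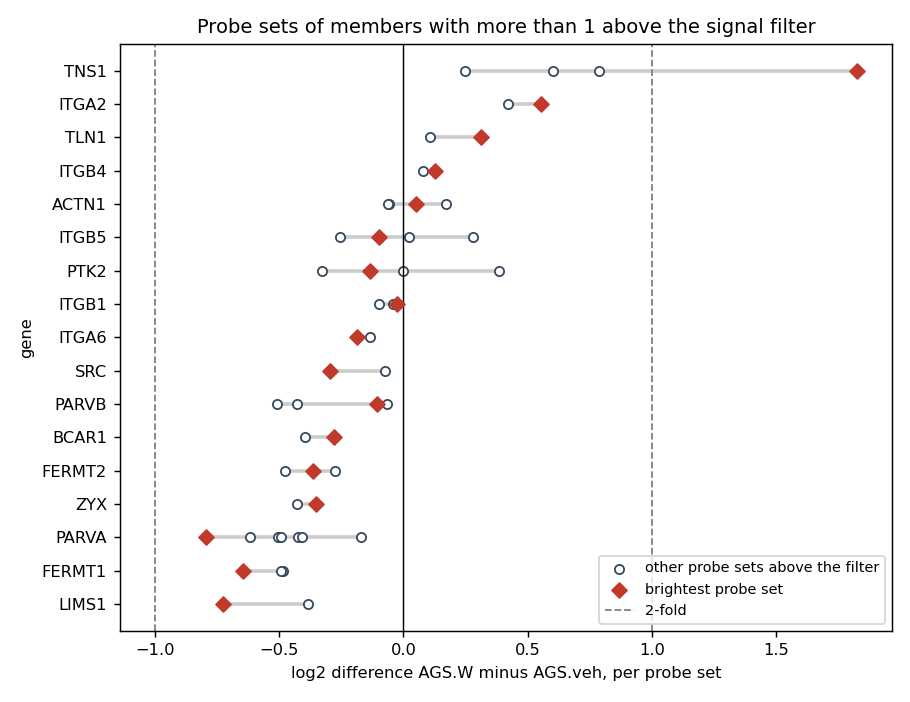
Log2 difference AGS.W minus AGS.veh (horizontal axis) of every probe set above the signal filter for the 17 members with more than 1 (diamonds, the brightest; circles, the others; dashed lines, 2-fold). All 7 probe sets of PARVA lie left of 0, between -0.79 and -0.17, and all 4 of TNS1 lie right of it, with 1 past 2-fold.

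Other proteins of the adhesion machinery also had a count past 2-fold near the background. Of 51 further adhesion proteins 41 passed the filter, 1 at least 2-fold higher, 1 at least 2-fold lower and 26 lower by sign (63.4%), with a median of -0.12. Of all genes above the filter 1.83% were 2-fold higher, 1.94% were 2-fold lower and 50.5% were lower by sign. ARHGEF6 (alpha-PIX), an exchange factor that binds parvin and the GIT proteins, had 6.56 in AGS.W and 5.09 in AGS.veh, a difference of 1.47 on a single probe set. It was followed on the higher side by TNS4 with 0.59, and 0.11 on its second probe set, and by KANK1, a talin-binding protein at the rim of adhesions, with 0.50, though KANK1 had -0.29 on its second probe set. On the lower side stood SORBS2, a vinculin-binding adaptor, with -1.17, NEDD9, a relative of p130Cas, with -0.81, and ENAH, an actin polymerase of the Ena/VASP family, with -0.54. Probe sets of SORBS2 ran from -1.17 to 1.19, so that its direction is not settled. Those of NEDD9 ran from -0.85 to 0.04 and those of ENAH from -1.82 to 0.02.

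Regulators of integrin activation had small differences. All 12 with a value passed the filter, 0 were 2-fold apart, against 3.78% of all genes, and their median was -0.04. RAP1B and RAP1A, the small GTPases that bring talin to the membrane, had -0.23 and -0.19, although probe sets of RAP1A reached -1.30, and CD47, an integrin-associated receptor, had -0.18. RASIP1, a RAP1 effector, had 0.38, SLC3A2, the CD98 heavy chain that binds beta tails, had 0.22, and APBB1IP, which couples RAP1 to talin, had 0.07.

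Of the tetraspanins and hemidesmosome genes, 8 of 10 with a value passed the filter, and 1 was at least 2-fold lower, against 1.94% of all genes. DST, whose epithelial isoform anchors keratin at hemidesmosomes, had 6.42 in AGS.W and 7.59 in AGS.veh, a difference of -1.18, but its 6 probe sets ran from -1.18 to 0.53. The remaining 7 lay within 2-fold, among them the tetraspanins CD9 with 0.21, CD63 with 0.13, CD151 with 0.07 and CD82 with -0.16, and the plakin PLEC with -0.08. The second probe set of CD82 had -0.93.

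The ligands of these receptors differed in both directions, with 18 of 23 above the filter, 0 at least 2-fold apart and a median of -0.11. Of all genes above the filter 3.78% were 2-fold apart. COL1A1 had 7.89 in AGS.W and 6.95 in AGS.veh, a difference of 0.94, though its 4 probe sets ran from -0.34 to 0.94. EDIL3, a ligand of ITGAV integrins, had 0.87, and NPNT (nephronectin), the ligand of the ITGA8 receptor, had 0.78. Each rested on 1 probe set above the filter, and the means over all their probe sets were 0.21 for EDIL3 and 0.44 for NPNT. Lower were COL4A1 with -0.71, the fibrillin FBN1 with -0.61 and the laminin chain LAMC1 with -0.54, and each of these was lower on all of its probe sets above the filter. FN1, the ligand of the ITGA5 receptor, had 4.24 in AGS.W and 4.26 in AGS.veh.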

How the data were processed

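RNA of AGS.W and AGS.veh cells was measured on 1 Affymetrix U133 Plus 2.0 array per line. The deposited table holds 1 log2 signal per probe set and array, as the authors processed it. The upper quartile was 5.83 on both arrays. The labels list RMA and MAS5 without roles or versions. For background correction and normalization between arrays, the method is not given in the sources used here. Values were taken unchanged. Control probe sets (62) were left out. In the platform annotation of 2016, 41091 probe sets have 1 gene, 1801 have several and were not used, and 11721 are unnamed here. Symbols were updated through RefSeq gene identifiers (GRCh38.p14).

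With 1 array per line no test was run. The fold threshold of 2 is that of the study's methods, and its FDR could not be applied. The number of arrays limits the precision. All members were named, and from each further gene list up to 3 genes in each direction. Defining cell type markers were named too. FN1, TNS2, LIMS2, PARVG and FERMT3, the promoters and the motifs were chosen after values were seen. Members and lists were chosen with earlier results of these data known. The counting code was run on simulated arrays with planted shifts larger than the fold threshold. That run checks the code alone and says nothing on the noise of these data. Alternatives covered scaling, signal filters, fold thresholds, choice of probe set and dim values. Calculations used numpy 2.4.6 and pandas 2.3.3 under Python 3.11.15, with lowess from statsmodels 0.14.6 and plots from matplotlib 3.10.9.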

Additional observations from a re-analysis of the deposited data

How the results depend on the processing

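No paired analysis was possible because the lines have 1 array each, so leaving out a replicate was not possible either. The count of members at least 2-fold higher was 1 and became 0 with a gene taken as the mean of its probe sets, as the mean of those above the filter, and with the _x_at and _s_at types left out, where TNS1 had 0.71, 0.87 and 0.60. At a threshold of 1.5-fold, 2 were higher and 6 lower. The count of members at least 2-fold lower was 0 and stayed 0 under the alternatives of scaling, filter, probe set and dim values, and at 3-fold. The median of the members was -0.21 with the probe set of largest difference, that of the integrins -0.12 with the _x_at and _s_at types left out, and that of the adaptors -0.11 as the mean of all probe sets. Over all genes, 235 were higher and 249 lower by 2-fold, against 143 and 136 as the mean of all probe sets and 361 and 371 where the probe set of largest difference was taken. The other medians moved by less than the robust spread of the genes divided by the square root of their number, from 0.051 to 0.065. That bound treats genes as independent. The integrin median, close to 0, was 0.0047 after quantile normalization and 0.0089 with a lowess curve taken off. Over the 35 members above the filter, 294 of 311 alternative differences moved by less than the robust spread of genes of like signal, and 13 values of 8 members changed sign, namely ITGA7, ITGA8, ITGB1, ITGB3, ITGB4, ITGB5, PTK2 and VCL. For many members that spread is larger than the difference itself, as for ITGB1 with 0.26 against -0.03. The count of 294 therefore says little on whether a small difference holds. As the mean of all probe sets, dim ones included, ITGB8 had -0.27, TNS3 -0.35 and LIMS1 -0.41. Many members have 1 probe set, which such choices cannot move. Signals near the array median may hold background, which limits ITGA2B, ITGA7, ITGA8, ITGB2, ITGB3, ITGB7, ITGB8, LIMS1, TLN1 and TLN2.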

Other observations

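The deposited values repeat in a way that bears on how small differences are read. Over all 54613 probe sets, 6900 (12.6%) had identical values on both arrays, and of the 47713 others 76.2% shared the size of their difference, to 6 decimals, with at least 1 other probe set. The most frequent size was 0.199306, found for 804 probe sets. Among the 126 member probe sets 16 (12.7%) were identical on both arrays, 14 of them below the signal filter, and the exceptions were those of ITGA3 and PTK2. Of the 110 unequal ones 72.7% had a size that recurs in the table. TLN2 and ITGA2B, for example, had differences of -0.227856 and 0.227856, a size held by 95 probe sets, and ZYX and PARVB each had a probe set at -0.427667, held by 44. Whole pairs of values recurred as well, for 27.0% of all probe sets and 1994 of the 28504 above the filter, and for 30 member probe sets, 2 of which were above it. What gives rise to the repeats was not tested.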
